A study of Danio rerio with 12 samples.

Results

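The enzymes that make serine and feed its carbon into the folate pool were measured in RNA of zebrafish embryos as a fixed set of 10 genes, chosen by symbol: phgdh, psat1, psph, shmt1, shmt2, mthfd1a, mthfd1b, mthfd1l, mthfd2 and mthfd2l. All 10 symbols stood on 1 gene each among the 31465 genes of the count table, and all 10 passed the filter on low counts that left 21068 genes for testing. There were 12 libraries: 3 of wild-type embryos of strain AB and 3 of embryos labelled Mycn mutant, each at 48 and at 72 hours post fertilization (hpf). The labels give no allele or background strain for the mutant, call the material embryonic cells, and do not say whether a library held 1 embryo, a pool or a separate clutch, so p-values measure only how far these libraries differ among themselves, which may be technical. The study's title places the mutant as a model of Feingold syndrome 1 and names intestinal development and ribosome production, and the comparisons here ask how RNA of these enzymes differs between genotypes at each age and between ages.

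Serine is built from a glycolytic intermediate in a short chain of reactions, and its side carbon is then passed to folate in the cytosol and in mitochondria, from where it serves the synthesis of purines, thymidylate and methionine. The mitochondrial arm is known in mammals as the main source of formate in growing cells, and several of these genes are known targets of MYC-family factors and of ATF4 in mammalian cells. Rapidly dividing embryonic cells draw on this pathway for nucleotides. Zebrafish carry a pair of genes, mthfd1a and mthfd1b, for the cytosolic enzyme that mammals make from a single one, and reads from stretches shared by such copies are uncertain.

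Library totals lay between 14793715 and 19732340 counts. Levels are given as CPM, counts relative to the TMM-scaled library size, as mean ± SD of 3 libraries, and a count of 3 was worth 0.151 to 0.216 CPM in a single library. All markers on a short list for muscle, blood, neurons, epidermis, cartilage, liver, intestine, pancreas, neutrophils and vessels had counts in all 12 libraries. Some of these 10 markers moved with genotype: 3 were lower in the libraries labelled mutant at 48 hpf and 1 at 72 hpf (edgeR). The same fit called 422 of all 21068 tested genes lower at 48 hpf and 89 at 72 hpf. At 48 hpf the embryonic globin gene hbbe1.1, one of a family of similar copies among which reads are uncertain, went from 6294 ± 1553 to 1594 ± 687 CPM (log2 fold change -1.98, edgeR adjusted p = 0.000613), the pancreatic trypsin gene prss1 from 4.32 ± 2.50 to 1.44 ± 0.153 CPM (-1.60, edgeR adjusted p = 0.0448), and the third was the liver gene fabp10a. At 72 hpf the intestinal fatty acid binding protein gene fabp2 went from 147 ± 16.9 to 78.4 ± 8.54 CPM (-0.91, edgeR adjusted p = 0.0491). The limma-voom test and the fit of the 6 libraries of 48 hpf called 1 of the 3, beside 597 and 74 genes in all. Scaling with DESeq2 size factors, which called 107 genes in all at 72 hpf, ended the call at that age. The part of these tissues in the values of the enzymes was not tested. mycn itself, the gene named as mutated, had 74.0 ± 14.9 CPM at 48 hpf in the wild-type libraries, against 222 ± 25.2 CPM in those labelled mutant. At 72 hpf the values were 77.2 ± 2.25 and 153 ± 9.86 CPM, so that its RNA was higher and not lower. The libraries are therefore called mutant-labelled, and every direction between genotypes rests on the labels. Wild-type 48 hpf replicate 2 stood apart for some of the enzymes and for liver genes: all 17 measured genes of a hepatocyte list were lowest there among the 3 wild-type libraries of that age, with a summed level of 19132 CPM against 30110 and 33436 CPM. The hepatocyte sum was also uneven in the other groups, and in all 4 groups shmt2, mthfd1a and mthfd1l were lowest in the very library with the lowest sum (mutant-labelled replicate 3 at 48 hpf, wild-type replicate 3 and mutant-labelled replicate 2 at 72 hpf), while phgdh, psat1 and mthfd2 were so in 0 of 4 groups. Of the other members, psph was so in 3 of 4 groups, shmt1 and mthfd2l in 2 each and mthfd1b in 1. This pattern was noticed after the values were seen, and its part in the results was not tested. How many of all tested genes share it was not counted, so it is not read as particular to these enzymes. Several genes of that list, such as apoa2 and apobb.1, are also known to be transcribed in the yolk syncytial layer. In bulk RNA fewer cells of a type and less RNA per cell cannot be told apart.

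**Figure D1:**
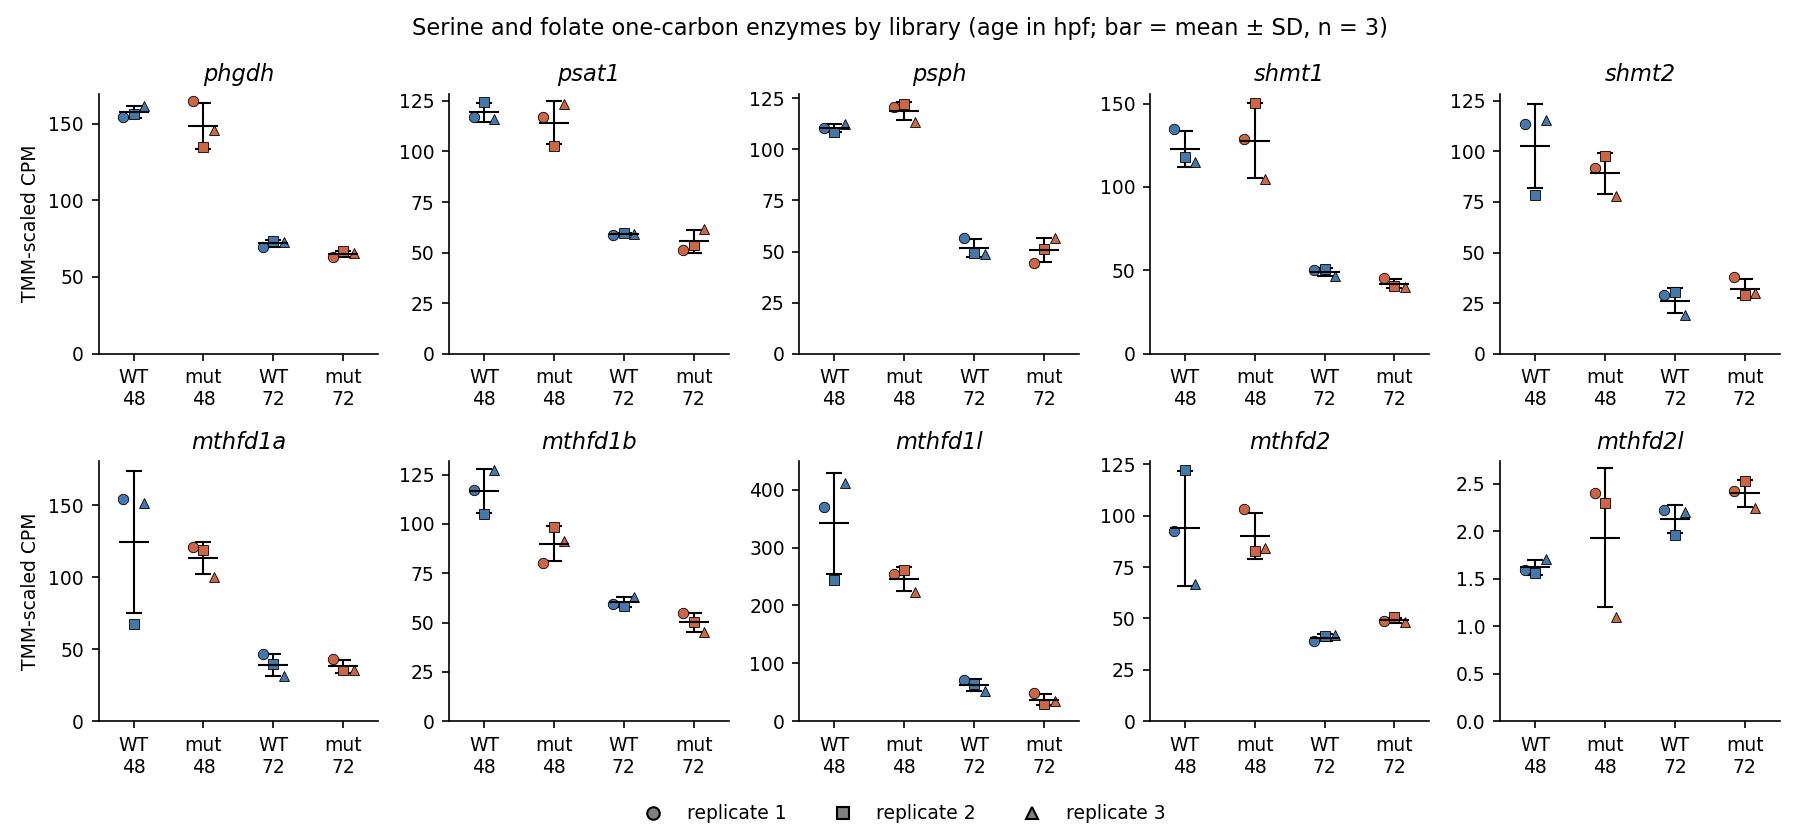
TMM-scaled CPM (vertical axes, from 0, a separate scale for each gene) of the 10 enzymes in wild-type (WT) and mutant-labelled (mut) libraries at 48 and 72 hpf; symbols are the replicates and bars the mean ± SD of 3 libraries. All genes but mthfd2l are lower at 72 than at 48 hpf in both genotypes, and wild-type 48 hpf replicate 2 (square) lies far below the other 2 wild-type libraries for mthfd1a, at 67.7 CPM.

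The largest differences in these enzymes were between the ages. From 48 to 72 hpf 9 of the 10 fell in wild-type and the same 9 in mutant-labelled embryos, and mthfd2l was not called in either (edgeR quasi-likelihood test, Benjamini-Hochberg adjusted p under 0.05 over all tested genes). Of all tested genes 70.8% were called with age in wild type and 35.4% fell, and in the mutant-labelled libraries 70.2% were called and 34.4% fell. The 48 and 72 hpf libraries of those 9 genes did not overlap in either genotype, as was so for 36.1% and 36.6% of all genes in this direction and for 73.3% and 74.2% in either. The log2 fold change was negative for 9 of the 10, beside 50.5% and 50.1% of all genes. The median log2 fold change of the 10 enzymes was -1.17 in wild type and -1.21 in the mutant-labelled libraries, beside medians of -0.02 and -0.00 over all genes. The 9 calls held in every alternative that was run.

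The serine synthesis enzymes fell by similar amounts. phgdh (ENSDARG00000001873) encodes the dehydrogenase that opens the chain. Its level was 155, 156 and 162 CPM in the wild-type libraries at 48 hpf and 69.5, 73.2 and 73.0 CPM at 72 hpf. It was 165, 135 and 146 CPM in the mutant-labelled libraries at 48 hpf and 62.8, 66.7 and 65.7 CPM at 72 hpf. Every 72 hpf library was thus below every 48 hpf library, with a log2 fold change of -1.13 in wild type (SE 0.09, edgeR adjusted p = 1.02e-08) and -1.19 in the mutant-labelled libraries (SE 0.09, edgeR adjusted p = 6.37e-09). psat1 (ENSDARG00000016733), the aminotransferase of the second step, went from 119 ± 4.69 to 59.1 ± 0.398 CPM in wild type and from 114 ± 10.6 to 55.5 ± 5.45 CPM in the mutant-labelled libraries. psph (ENSDARG00000040314), the phosphatase that releases serine, went from 110 ± 2.07 to 51.6 ± 4.32 CPM and from 119 ± 4.59 to 50.8 ± 5.93 CPM. The log2 fold changes of psat1 and psph were -1.01 and -1.10 in wild type and -1.04 and -1.23 in the mutant-labelled libraries, so that in both genotypes the 3 serine synthesis enzymes lost between 2.02-fold and 2.34-fold.

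The hydroxymethyltransferases, which split serine into glycine and a folate-bound carbon, fell further. shmt1 (ENSDARG00000052816), whose product is cytosolic in mammals, was at 135, 118 and 115 CPM in wild type at 48 hpf and at 50.1, 51.0 and 46.5 CPM at 72 hpf. In the mutant-labelled libraries it was at 129, 150 and 105 CPM and then at 45.3, 40.6 and 40.1 CPM. The log2 fold change with age was -1.32 (SE 0.12, edgeR adjusted p = 5.38e-08) in wild type and -1.60 (SE 0.12, edgeR adjusted p = 6.16e-09) in the mutant-labelled libraries. shmt2 (ENSDARG00000104414) encodes the mitochondrial counterpart. Its wild-type libraries held 113, 78.6 and 116 CPM at 48 hpf and 29.0, 30.3 and 18.9 CPM at 72 hpf, and the mutant-labelled ones 91.7, 97.8 and 77.9 CPM and then 37.7, 29.1 and 29.8 CPM. At each age 1 wild-type library was the low one, replicate 2 at 48 hpf and replicate 3 at 72 hpf, while the ages stayed apart. shmt2 fell 3.93-fold in wild type (log2 fold change -1.97, SE 0.18, edgeR adjusted p = 5.84e-08) and 2.77-fold in the mutant-labelled libraries (log2 fold change -1.47, SE 0.18, edgeR adjusted p = 1.69e-06).

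Among the folate enzymes the size of the fall differed most. mthfd1l (ENSDARG00000042221), which in mammals releases formate in mitochondria, held 371, 244 and 412 CPM in wild type at 48 hpf and 71.2, 65.0 and 51.7 CPM at 72 hpf. In the mutant-labelled libraries it held 255, 261 and 223 CPM and then 48.3, 29.8 and 34.1 CPM. It had the largest fall of the 10 genes, 5.46-fold in wild type (log2 fold change -2.45, 95% confidence interval -2.87 to -2.03, edgeR adjusted p = 1.30e-08) and 6.57-fold in the mutant-labelled libraries (log2 fold change -2.72, 95% confidence interval -3.14 to -2.29, edgeR adjusted p = 5.08e-09). mthfd1a (ENSDARG00000018266) and mthfd1b (ENSDARG00000040492) encode the trifunctional cytosolic enzyme. mthfd1a went from 154, 67.7 and 152 CPM to 46.7, 39.5 and 31.4 CPM in wild type and from 121, 119 and 100.3 CPM to 43.1, 35.3 and 35.7 CPM in the mutant-labelled libraries. Its log2 fold changes were -1.67 and -1.58 (SE 0.23 for each), and those of mthfd1b -0.95 and -0.84 (SE 0.10 and 0.11). The mutant-labelled interval of mthfd1b, -1.07 to -0.62, lay just above that of mthfd1a, -2.07 to -1.08, and the difference between the copies was not tested.

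mthfd2 and mthfd2l encode the mitochondrial dehydrogenase and cyclohydrolase. mthfd2 (ENSDARG00000098646), known in mammals as the form of embryonic and dividing cells, went from 92.4, 123 and 66.6 CPM to 38.8, 41.4 and 41.7 CPM in wild type. In the mutant-labelled libraries it went from 103, 83.1 and 84.3 CPM to 48.6, 50.6 and 48.5 CPM. The log2 fold changes were -1.21 (SE 0.16, edgeR adjusted p = 4.72e-06) and -0.87 (SE 0.16, edgeR adjusted p = 1.29e-04). mthfd2l (ENSDARG00000054199) was the least counted member, with 18 to 49 counts in a library. Its level lay at 1.59, 1.56 and 1.71 CPM in wild type at 48 hpf and at 2.22, 1.96 and 2.21 CPM at 72 hpf, and its log2 fold change with age was 0.39 in wild type (95% confidence interval -0.20 to 0.99) and 0.32 in the mutant-labelled libraries (-0.26 to 0.91). Its wild-type libraries did not overlap between the ages, being higher at 72 hpf (37.2% of all genes were separated in this direction in wild type and 37.6% in the mutant-labelled libraries), yet the fitted differences were not called (edgeR adjusted p = 0.223 and 0.311).

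**Figure D2:**
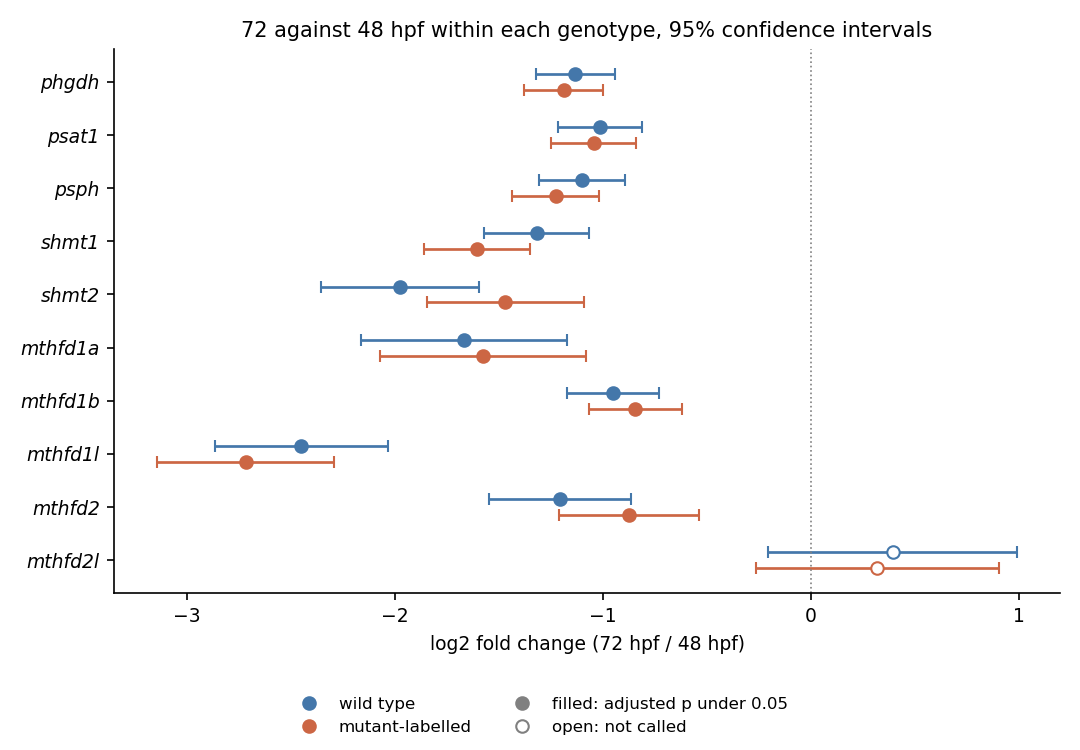
Log2 fold change of 72 against 48 hpf (horizontal axis) for each enzyme in wild-type and mutant-labelled libraries, with 95% confidence intervals from the edgeR fit of all 12 libraries; filled points have an adjusted p under 0.05. All genes but mthfd2l lie below 0 in both genotypes, and mthfd1l lies lowest, at -2.45 and -2.72.

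Scaling sets how large these falls look. With library totals alone the median of all genes moved to 0.41 in wild type and 0.32 in the mutant-labelled libraries, and the 9 enzymes then had log2 fold changes of -2.02 to -0.52 in wild type and -2.39 to -0.52 in the mutant-labelled libraries. Under that scaling mthfd2l was called higher with age (log2 fold change 0.82 and 0.65, edgeR adjusted p = 0.0151 and 0.0454). Genes of dividing cells were lower at 72 hpf as well: of 15 measured genes for replication and mitosis 13 fell in wild type and 14 in the mutant-labelled libraries, with medians of -0.74 and -0.77, where 35.4% and 34.4% of all genes fell. With library totals 8 fell and 1 rose in wild type and 12 fell in the mutant-labelled libraries. That scaling called 15122 and 14716 of all 21068 genes in either direction. Their summed level ran from 1794 to 2122 CPM in wild type at 48 hpf and from 1102 to 1168 CPM at 72 hpf, and no gene of that list was at 0. The hepatocyte list also fell in most members, 13 lower and 2 higher of 17 in wild type and 14 lower and 2 higher in the mutant-labelled libraries, beside the same shares of all genes that fell and 35.4% and 35.7% that rose, with a wild-type summed level of 19132 to 33436 CPM at 48 hpf and 6057 to 7944 CPM at 72 hpf. Of that list ttr was at 0 in 2 mutant-labelled 48 hpf libraries. The liver gene fabp10a was among the 2 that rose, from 2.64 ± 1.66 to 33.3 ± 3.23 CPM in wild type. In the mutant-labelled libraries it went from 0.703 ± 0.194 to 53.0 ± 6.72 CPM. apoa2, one of the genes also known from the yolk syncytial layer, held 9875 ± 2658 CPM in wild type at 48 hpf. What the fall of the sum means for the liver was not tested. The part of either list in the fall of the enzymes was not tested.

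Between the genotypes the enzymes differed far less. At 48 hpf 0 of the 10 were called between mutant-labelled and wild-type libraries in edgeR, where 3.04% of all tested genes were called, 1.04% as higher. At an unadjusted p under 0.05 there were 2, both lower, beside 3654 of all 21068 genes in either direction. DESeq2 called 1 and limma-voom 0, beside 1063 and 597 of all genes. Of the 10 log2 fold changes 7 were negative, with a median of -0.07, beside 50.4% negative and a median of -0.00 over all genes. The libraries of the genotypes did not overlap for 2 members, mthfd1b, which had the lower values in the mutant-labelled libraries, and psph, which had the higher ones. Of all genes 16.8% were separated, 9.08% lower and 7.69% higher.

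The lower of these was the cytosolic enzyme mthfd1b. It held 117, 105 and 127 CPM in wild type at 48 hpf and 80.4, 98.3 and 91.4 CPM in the mutant-labelled libraries. The highest mutant-labelled library was thus below the lowest wild-type one, with a log2 fold change of -0.37 (95% confidence interval -0.59 to -0.15), which missed the threshold in edgeR (adjusted p = 0.0622) and passed it in DESeq2 (log2 fold change -0.37, adjusted p = 0.0296). mthfd1l averaged 342 ± 87.5 CPM in the wild-type and 246 ± 20.4 CPM in the mutant-labelled libraries at this age (log2 fold change -0.48, 95% confidence interval -0.87 to -0.08, edgeR adjusted p = 0.187). Its wild-type replicate 2, at 244 CPM, lay among the mutant-labelled libraries, and the other 2 wild-type libraries lay above all of them. Without wild-type 48 hpf replicate 2 both genes were called lower, mthfd1b with a log2 fold change of -0.44 and mthfd1l with -0.67 (edgeR adjusted p = 0.0236 and 0.0272), and 4.37% of all genes were called. That library was the lowest wild-type one of this age for both genes. Leaving it out could thus only raise their wild-type means, and nothing is drawn from these 2 calls. Without wild-type 48 hpf replicate 3 the difference of mthfd1l shrank to -0.31 and neither gene was called.

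The other 8 enzymes had intervals that included 0 at 48 hpf. phgdh had a log2 fold change of -0.09 (95% confidence interval -0.27 to 0.10), psat1 of -0.06 (-0.26 to 0.14) and psph of 0.10 (-0.10 to 0.31). For these serine synthesis enzymes the intervals reach from -0.27 at the lowest (phgdh) to 0.31 at the highest (psph) on the log2 scale. They were wider for shmt2 (-0.56 to 0.16), mthfd1a (-0.61 to 0.34) and mthfd2 (-0.39 to 0.28), whose wild-type libraries were spread most. Among the wild-type libraries mthfd2 had its highest level, 123 CPM, in replicate 2, where mthfd1a was lowest. For shmt1 the interval was -0.19 to 0.31, and for mthfd2l, with few counts, -0.37 to 0.86. The signs of phgdh, psat1 and mthfd2 turned under library totals, to 0.00, 0.03 and 0.04.

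At 72 hpf 0 of the 10 enzymes were called in edgeR, where 0.555% of all tested genes were called. At an unadjusted p under 0.05 there were 2, both lower, beside 1633 of all 21068 genes in either direction. DESeq2 called 1 and limma-voom 0, beside 260 and 195 of all genes. The median log2 fold change was -0.07, beside 0.01 over all genes, and 7 were negative, beside 47.0% of all genes. More members were separated than at 48 hpf: the libraries did not overlap for 6 of the 10, where 20.1% of all genes were separated. Of the 6, phgdh, shmt1, mthfd1b and mthfd1l had lower values in the mutant-labelled libraries (9.14% of all genes), and mthfd2 and mthfd2l higher ones (11.0%).

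The formate-releasing enzyme mthfd1l had the largest genotype difference of the set. At 72 hpf its wild-type libraries held 71.2, 65.0 and 51.7 CPM and its mutant-labelled ones 48.3, 29.8 and 34.1 CPM. All mutant-labelled libraries were below all wild-type ones. The hepatocyte sum was 8159 to 9154 CPM in the mutant-labelled and 6057 to 7944 CPM in the wild-type libraries, and the part of the liver was not tested. The log2 fold change of mthfd1l was -0.74 (95% confidence interval -1.15 to -0.33), a level 1.67-fold lower, with an unadjusted p of 0.00142 that did not pass after adjustment over all genes in edgeR (adjusted p = 0.135). DESeq2 called it (log2 fold change -0.74, adjusted p = 0.0277), as did the edgeR fits with no filter on low counts (adjusted p = 0.0367), without wild-type 48 hpf replicate 2 (adjusted p = 0.0233) and on the 6 libraries of this age (log2 fold change -0.75, adjusted p = 0.00379). In the last of these fits the spread of the 48 hpf libraries plays no part, and 3.94% of all genes were called. The edgeR fits with library totals, with DESeq2 size factors or with replicate number as a block did not call mthfd1l. Nor did limma-voom or any other fit that left out 1 library. mthfd1l and mthfd1a stand on the same chromosome as mycn in the RefSeq annotation of assembly GRCz12tu, which is not the build of the counts. Of 737 tested genes matched to that chromosome 2.04% were called at 72 hpf and 4.48% at 48 hpf, against 0.480% and 2.81% of 16676 genes matched to the others. Its part in the values of mthfd1l was not tested, and mthfd1a had a log2 fold change of -0.04 (95% confidence interval -0.54 to 0.45).

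mthfd2 stood on the other side. Its wild-type libraries held 38.8, 41.4 and 41.7 CPM at 72 hpf and its mutant-labelled ones 48.6, 50.6 and 48.5 CPM, so that the groups did not overlap. The log2 fold change was 0.28 (95% confidence interval -0.06 to 0.61) and was not called in the fit of all libraries (edgeR adjusted p = 0.783), whose estimate of spread takes in the 48 hpf libraries (SD 28.0 CPM in wild type there, 1.59 CPM at 72 hpf). In the fit of the 6 libraries of this age it was called higher (log2 fold change 0.27, edgeR adjusted p = 0.0402). mthfd1b held 59.5, 58.5 and 63.0 CPM in wild type and 54.9, 50.2 and 45.2 CPM in the mutant-labelled libraries (log2 fold change -0.27, 95% confidence interval -0.49 to -0.04, edgeR adjusted p = 0.504), in the same direction as at 48 hpf. shmt1 had a log2 fold change of -0.23 (-0.48 to 0.03), shmt2 of 0.30 (-0.08 to 0.68) and mthfd2l of 0.17 (-0.39 to 0.74). The serine synthesis enzymes phgdh, psat1 and psph had values of -0.14, -0.09 and -0.02, and their intervals, the lowest bound of which was -0.33, included 0.

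**Figure D3:**
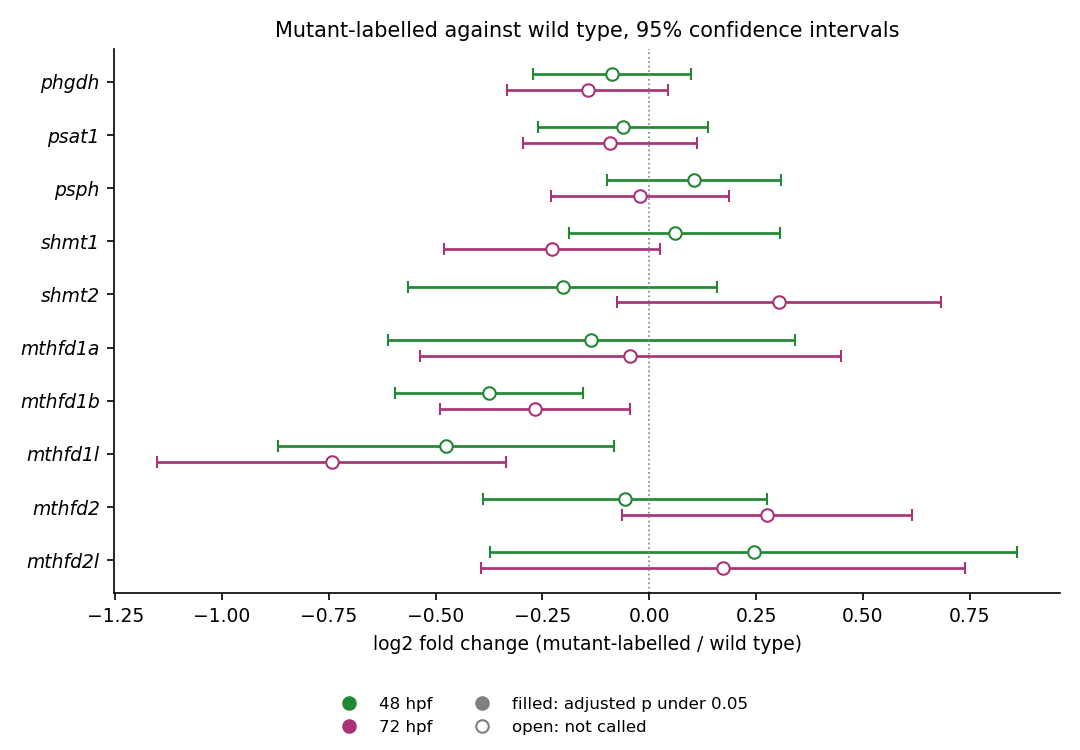
Log2 fold change of mutant-labelled against wild-type libraries (horizontal axis) for each enzyme at 48 and 72 hpf, with 95% confidence intervals from the edgeR fit of all 12 libraries; all points are open because 0 had an adjusted p under 0.05. The intervals of mthfd1b and mthfd1l lie below 0 at both ages, and those of the other 8 include 0.

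The difference of the genotype effect between the ages was called for 0 of the 10 enzymes, where 0.470% of all genes were called. In edgeR, where 2187 of all 21068 genes had an unadjusted p under 0.05, no member did, and DESeq2 and limma-voom called 0. The smallest p was that of shmt2, whose genotype difference was -0.20 at 48 and 0.30 at 72 hpf on the log2 scale (difference 0.51, 95% confidence interval -0.02 to 1.03, unadjusted p = 0.0573, edgeR adjusted p = 0.506). For mthfd1l the difference was -0.27 (-0.83 to 0.30), and for mthfd1b 0.11 (-0.21 to 0.42).

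Counts were also compared between the enzyme copies within a library, which does not depend on how libraries are scaled. These shares are of reads and not per length, so only their change between libraries was read. Of the counts of shmt1 and shmt2 together, shmt2 took 36.7%, 37.3% and 28.9% in the wild-type libraries at 72 hpf and 45.4%, 41.8% and 42.6% in the mutant-labelled ones. Every mutant-labelled library was above every wild-type one, by 8.97 percentage points between the means, as was the hepatocyte sum, whose part was not tested (shares of 34.3 ± 4.68% and 43.3 ± 1.91%, SD, n = 3 each). The exact two-sided permutation test gave p = 0.1, which is the smallest that 3 against 3 libraries allow. The p-values of the shares were not adjusted for the number of shares and ages tested. At 48 hpf the shares were 45.7%, 40.0% and 50.1% in wild type and 41.6%, 39.4% and 42.6% in the mutant-labelled libraries, and they overlapped (exact permutation p = 0.3). The 95% exact binomial intervals, which cover counting error only, were 26.4% to 31.6% for the lowest library and 48.5% to 51.7% for the highest.

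mthfd1a took 50.1 ± 9.55% of the counts of the cytosolic copies in wild type and 55.7 ± 3.99% in the mutant-labelled libraries at 48 hpf (SD, n = 3 each, exact permutation p = 0.5). The wild-type spread came from replicate 2, with 39.2% against 56.8% and 54.4% in the other 2. At 72 hpf the shares were 39.2 ± 5.45% and 43.1 ± 1.59% (n = 3 each, exact permutation p = 0.3). mthfd2 took nearly all counts of the mthfd2 and mthfd2l genes, between 97.3% and 98.7% at 48 hpf and between 94.6% and 95.6% at 72 hpf, and the genotypes overlapped at both ages (exact permutation p = 0.7 and 0.3).

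**Figure D4:**
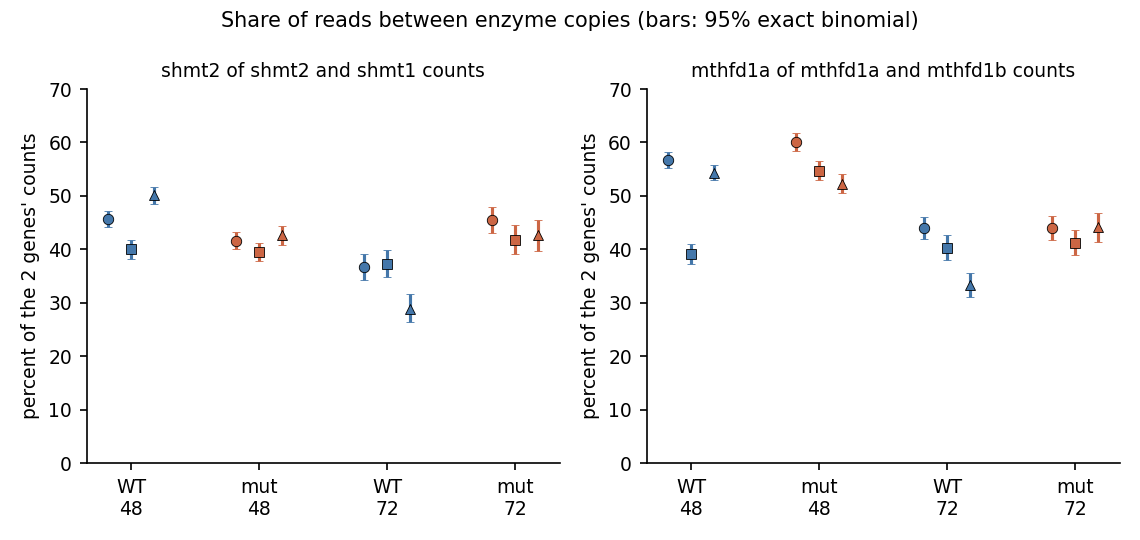
Share of counts (vertical axis, percent) taken by shmt2 among shmt1 and shmt2 counts (left) and by mthfd1a among mthfd1a and mthfd1b counts (right) in each library, with 95% exact binomial intervals; circles, squares and triangles are replicates 1, 2 and 3. The 3 mutant-labelled 72 hpf libraries lie above the 3 wild-type ones for shmt2, at 41.8% to 45.4% against 28.9% to 37.3%, and overlap them for mthfd1a.

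The genes whose levels ran most like those of the leading members were found by the root mean square difference of centred log2(CPM + 1) values over the 12 libraries, a measure that the age difference dominates. Nearest to mthfd1b were psmg2, a proteasome assembly chaperone, at 0.0967, followed by the ribosomal protein gene rpl8, rbm48, the ribosomal protein gene rps7 and zgc:110239, at up to 0.123. Nearest to mthfd1l were the ribosomal protein genes rps2 and rplp0, at 0.224 and 0.229, then the keratin gene krt18b, pnp4a and bscl2l, at up to 0.276. The closest other enzyme of the set was psat1 for mthfd1b (0.222), at rank 652, and shmt2 for mthfd1l (0.589), at rank 593. Genes of low average level, mthfd2l among them, were left out of this search.

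Around the 10 enzymes, 49 measured genes of glycine cleavage, serine and glycine use, folate uptake and use, and the methionine cycle were read from a list. At 48 hpf 3 of the 49 fell and 0 rose, and at 72 hpf 0 fell and 1 rose (edgeR), with medians of -0.01 and 0.01. Of all genes 2.0% fell at 48 hpf and 0.133% rose at 72 hpf. In the fit of the 6 libraries of each age 0 of the 49 were called at 48 hpf, and 2 rose and 2 fell at 72 hpf. These fits called 0.381% and 3.94% of all genes. At an unadjusted p under 0.05 there were 7 lower and 2 higher at 48 hpf and 3 lower and 1 higher at 72 hpf. Over all 21068 genes there were 3654 and 1633, in either direction. The 3 that fell were amt, the aminomethyltransferase of the glycine cleavage system, agxta, an aminotransferase that makes glycine from glyoxylate, and ftcd, which passes a carbon from histidine breakdown to folate.

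amt held 20.5, 18.5 and 15.8 CPM in wild type and 12.4, 13.0 and 10.8 CPM in the mutant-labelled libraries at 48 hpf (log2 fold change -0.60, SE 0.13, edgeR adjusted p = 0.0264). agxta went from 5.87 ± 1.59 to 3.14 ± 0.659 CPM (log2 fold change -0.90, SE 0.21, edgeR adjusted p = 0.0343). ftcd went from 116 ± 15.4 to 83.1 ± 10.7 CPM (log2 fold change -0.48, SE 0.12, edgeR adjusted p = 0.0419). The groups of amt did not overlap, and each of the 3 calls was lost in the fit of the 6 libraries of this age (edgeR adjusted p = 0.155, 0.208 and 0.201). Library totals ended the calls of amt and ftcd (edgeR adjusted p = 0.0503 and 0.0719), limma-voom that of agxta (adjusted p = 0.0713), and the fit with replicate number as a block those of agxta and ftcd (edgeR adjusted p = 0.0568 and 0.0742). Leaving out 1 library ended the call of amt for wild-type 48 hpf replicate 1 and each mutant-labelled 48 hpf library (edgeR adjusted p = 0.0522 to 0.0907). It ended that of agxta for wild-type 48 hpf replicate 1, wild-type 72 hpf replicate 2, mutant-labelled 48 hpf replicates 1 and 2 and each mutant-labelled 72 hpf library (0.0503 to 0.130), and that of ftcd for any library but wild-type and mutant-labelled 48 hpf replicate 2 (0.0513 to 0.158).

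At 72 hpf the second copy of the aminotransferase, agxtb, rose from 51.8, 56.9 and 50.3 CPM in wild type to 81.9, 78.9 and 82.3 CPM in the mutant-labelled libraries (log2 fold change 0.61, SE 0.11, edgeR adjusted p = 0.0155). The groups were far apart, and DESeq2 and limma-voom called it too, while leaving out any 1 of the 6 libraries of this age ended the edgeR call (adjusted p = 0.0783 to 0.125). The mammalian enzyme is known to be abundant in liver. In the hepatocyte list 16 of 17 genes had positive log2 fold changes at 72 hpf, with a median of 0.23. Over all genes 47.0% were negative and the median was 0.01. edgeR called 0 of the 17, as did DESeq2 and limma-voom. At an unadjusted p under 0.05 3 were positive, beside 1633 of all 21068 genes in either direction. The fit of the 6 libraries of this age called 4 higher, and the fit without wild-type 48 hpf replicate 2 called 1 higher. These fits called 3.94% and 0.901% of all genes. The smallest p of the list in the main fit was that of fabp10a, the liver fatty acid binding protein, at 33.3 ± 3.23 and 53.0 ± 6.72 CPM (edgeR adjusted p = 0.334). The part of the liver in the level of agxtb was not tested. At 48 hpf fabp10a fell from 2.64 ± 1.66 to 0.703 ± 0.194 CPM (edgeR adjusted p = 0.0333), the single call of that list, beside 641 genes in all. Limma-voom and the fit of the 6 libraries of 48 hpf gave 0, beside 597 and 74 genes in all. Without wild-type 48 hpf replicate 2 the list gave 6 lower, with a median of -0.39. All 17 genes were lowest in that library among the wild-type ones of that age. Leaving it out could thus only raise their wild-type means, and nothing is drawn from this count.

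In the edgeR fit of all libraries the smallest p in the other wider lists stayed above the threshold. At 48 hpf they were those of fpgs, which adds the glutamate tail that keeps folate in cells (log2 fold change -0.47, edgeR adjusted p = 0.0517), and ahcy, which clears S-adenosylhomocysteine (-0.38, edgeR adjusted p = 0.136). At 72 hpf they were those of gcshb of the glycine cleavage system (-0.29), the folate receptor gene folr (-0.70), gart of purine synthesis (-0.25) and mat1a of S-adenosylmethionine synthesis (0.42), with edgeR adjusted p from 0.389 to 0.737. DESeq2 called 1 lower in the folate uptake list at 48 hpf, beside 1063 genes in all. The fit of the 6 libraries of 72 hpf called 1 lower in that list and 1 higher in the methionine cycle list. That fit called 795 genes in all.

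**Figure D5:**
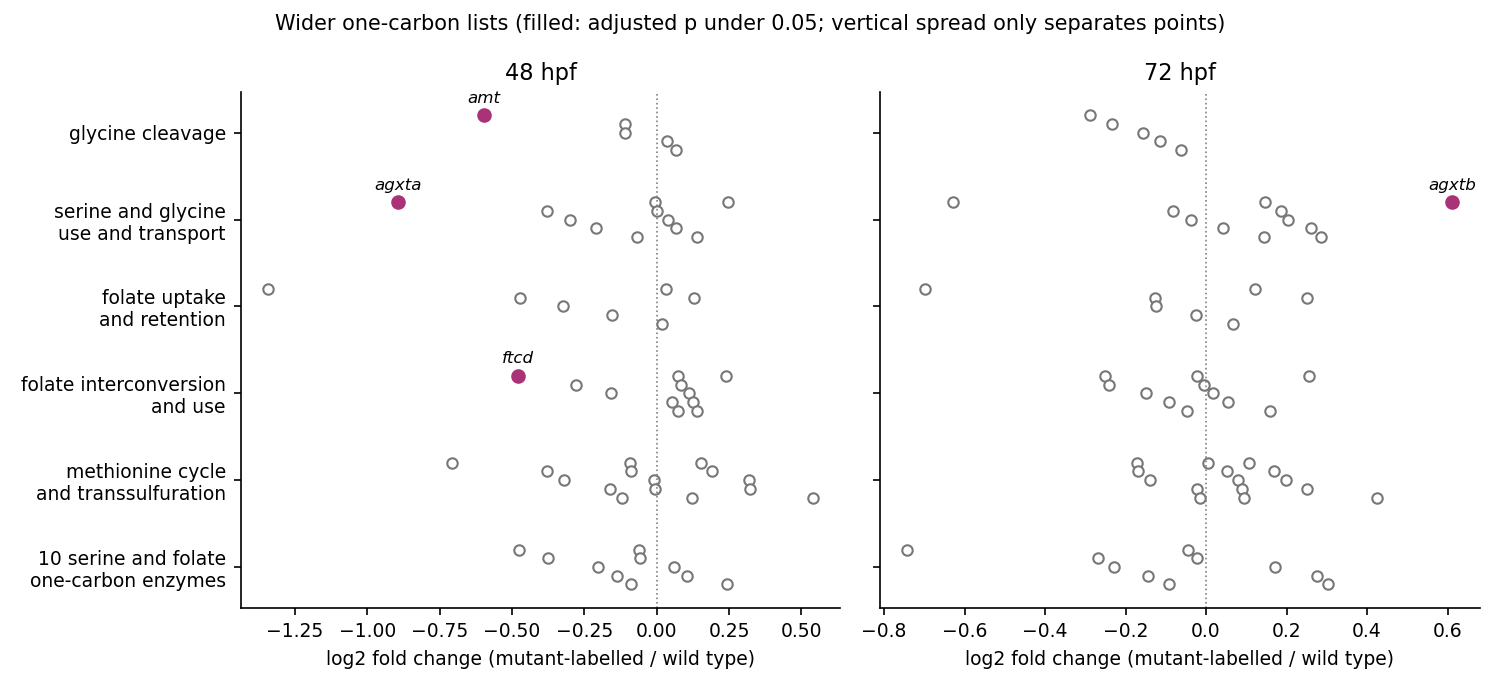
Log2 fold change of mutant-labelled against wild-type libraries (horizontal axes, with a separate scale at each age) for the 49 genes of the wider lists and the 10 enzymes, 1 point per gene, at 48 hpf (left) and 72 hpf (right); filled points, with names, have an adjusted p under 0.05. The filled points are amt, agxta and ftcd below 0 at 48 hpf and agxtb above 0 at 72 hpf.

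Genes of the amino acid response, which in mammals switches on serine synthesis through ATF4, gave 0 calls among 12 at either age in edgeR and limma-voom, and DESeq2 called 1 lower at 48 hpf and 0 at 72 hpf. Their medians were -0.04 and -0.00, and at an unadjusted p under 0.05 there were 1 higher and 2 lower at 48 hpf and 0 at 72 hpf. Over all 21068 genes there were 3654 and 1633, in either direction, and DESeq2 called 1063 and 260. The smallest p of the list at 48 hpf was that of the amino acid transporter subunit slc3a2b, with 46.5 ± 2.72 CPM in the wild-type and 37.5 ± 2.70 CPM in the mutant-labelled libraries (edgeR adjusted p = 0.0729). atf4a was at 310 ± 11.2 and 282 ± 3.48 CPM at 72 hpf (edgeR adjusted p = 0.844). The genes of dividing cells gave 0 calls among 15 at either age in edgeR, DESeq2 and limma-voom, with medians of 0.10 and -0.04. At an unadjusted p under 0.05 there were 4 higher at 48 hpf and 2 lower at 72 hpf, beside the same 3654 and 1633 of all genes. The smallest p of these 15 belonged to rrm1, a subunit of ribonucleotide reductase, at 48 hpf (log2 fold change 0.32, edgeR adjusted p = 0.133) and to the mitotic kinase gene aurkb at 72 hpf (-0.30, edgeR adjusted p = 0.506).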

How the data were processed

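The authors deposited 1 table of raw counts of reads per Ensembl gene, 1 column per library, before any normalization. STAR, featureCounts, DESeq2 and build GRCz11 are listed, without roles, in the submitters' processing notes. The sources used here give neither annotation release nor strand setting, so reads of overlapping and antisense genes cannot be told apart. Genes were kept by filterByExpr (minimum count 10), scaled by TMM and tested in 1 edgeR 4.0.16 quasi-likelihood fit of all 12 libraries, with a coefficient per group (R 4.3.3), after testing on simulated data. The pass mark of that test was set on changes larger than any between genotypes in the 10 members. P-values were adjusted by Benjamini-Hochberg over 21068 genes, threshold 0.05, and unless another tool is named every p of a gene comes from this fit. Alternatives were DESeq2 1.42.0, limma-voom (limma 3.58.1), other scalings, no filter, fits of the compared groups only, a replicate block, and leaving out each library. Same-numbered libraries did not deviate together (correlations -0.233 to 0.0241), so no pairing was used, and no replicate pair agreed within sampling noise (chi-square per degree of freedom from 4.35). The members, lists and rule for named genes were chosen with earlier results of these data known: all 10 members, mycn, and of each wider or marker list the called genes of smallest p (up to 4) or else the gene of smallest p. Of 113 listed entries srr, sds and hpx had no row and chac1 was filtered out. Chromosomes were compared by symbol in a RefSeq table (17413 tested genes matched), without coordinates. No sequences are shown.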

Additional observations from a re-analysis of the deposited data

How the results depend on the processing

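The 9 falls with age kept their direction and their calls in every alternative run, and the count of called members stayed at 9 when any 1 library was left out. Library totals brought it to 10 in each genotype, by adding mthfd2l, where 15122 genes in all were called in wild type and 14716 in the mutant-labelled libraries. The count for the genotypes was less settled. At 48 hpf it was 0, and 1 in DESeq2. At 72 hpf it was 0, 1 in DESeq2, 1 with no filter on low counts, and 2 in the fit of the 6 libraries of that age. The fit with no filter called 154 genes in all at 72 hpf. When 1 library was left out the counts ran from 0 to 2 at 48 hpf and from 0 to 1 at 72 hpf, and the counts above 0 came without wild-type 48 hpf replicate 2. At 48 hpf that library was the lowest wild-type one for both members called, mthfd1b and mthfd1l. Leaving it out raised their wild-type means. At 72 hpf the log2 fold change of mthfd1l was -0.75 without it and -0.74 with it. The cause of the call at 72 hpf was not tested. With replicate number as a block the counts were 0, 0 and 0 for the genotypes and their difference and 9 and 9 with age, and the copy shares kept exact p of at least 0.25, the smallest that 3 pairs allow. This fit called 438 genes in all at 48 hpf and 74 at 72 hpf, against 641 and 117.

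The median of the 10 genes at 48 hpf was 0.02 under library totals, where that of all genes was 0.09. Signs of values near 0 turned in several settings, none of them called. Under library totals at 48 hpf phgdh, psat1 and mthfd2 were at 0.0025, 0.029 and 0.035, and the difference between ages was -0.0089 for mthfd1a. limma-voom put that of mthfd2l at 0.025. With 1 library left out, the ranges at 48 hpf were -0.43 to 0.046 for mthfd1a, -0.24 to 0.19 for mthfd2, -0.11 to 0.015 for psat1 and -0.066 to 0.20 for shmt1. At 72 hpf they were -0.18 to 0.10 for mthfd1a and -0.10 to 0.062 for psph. For the difference between ages they were -0.10 to 0.37 for mthfd1a, -0.39 to 0.11 for mthfd2l, -0.14 to 0.014 for phgdh and -0.12 to 0.024 for psat1. The mthfd2 share differed by -0.67 to 0.037 percentage points at 48 hpf. Counts of all called genes also moved: at 48 hpf 1063 in DESeq2 and 74 in the fit of 6 libraries, and at 72 hpf 260, 195 in limma-voom and 795 in the fit of 6 libraries. Leaving out 1 library moved the share of all genes called to between 1.03% and 5.29% at 48 hpf, between 0.112% and 0.910% at 72 hpf and between 0.107% and 1.29% for the difference between ages, and the log2 fold change of mthfd1l to between -0.67 and -0.31 at 48 hpf and between -0.97 and -0.60 at 72 hpf. With 18 to 49 counts per library, mthfd2l was measured least precisely.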

Other observations

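Around the 10 enzymes the wider lists moved both ways with age. Of their 49 genes 17 rose and 22 fell in wild type and 17 rose and 21 fell in the mutant-labelled libraries (edgeR), with medians of -0.17 and -0.19. These counts stand beside 35.4% of all genes that rose and 35.4% that fell in wild type and 35.7% and 34.4% in the mutant-labelled libraries. With library totals the split turned to 22 higher and 17 lower in wild type and 23 and 17 in the mutant-labelled libraries. That scaling called 15122 and 14716 of all genes in either direction, and the medians of all genes were 0.41 and 0.32. Among genes named above, gart of purine synthesis and ahcy of the methionine cycle fell in wild type by 2.32 and 1.95 on the log2 scale (edgeR adjusted p = 6.88e-11 and 2.46e-09). agxtb rose from 1.57 ± 0.436 to 53.0 ± 3.42 CPM in wild type and from 1.20 ± 0.294 to 81.0 ± 1.87 CPM in the mutant-labelled libraries (log2 fold change 5.06 and 6.06, edgeR adjusted p = 4.16e-13 and 1.04e-13). In the glycine cleavage list gcshb rose by 1.40 in wild type and 1.04 in the mutant-labelled libraries (edgeR adjusted p = 3.07e-08 and 1.09e-06). In the amino acid response list 7 of 12 rose and 2 fell in wild type (9 and 1 with library totals), where 35.4% of all genes rose and 35.4% fell, and slc3a2b rose by 2.27 on the log2 scale (edgeR adjusted p = 5.02e-12).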
